A study of Caenorhabditis elegans with 6 samples.

Results

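The cytochrome P450 genes of *Caenorhabditis elegans* were taken as every row of the count table whose WormBase identifier carries a symbol beginning cyp-, which gave 73 genes of the 20392 in the table. The symbol also gives the subfamily, as in cyp-33C for *cyp-33C8*, and the largest subfamilies were cyp-13A and cyp-33C with 11 genes each, cyp-34A with 8, and the cyp-35 genes with 10 (5 in cyp-35A, 3 in cyp-35B and 1 each in cyp-35C and cyp-35D). Levels and changes of these genes were read in whole first-stage (L1) larvae mutant for *mrg-1*, which encodes the chromatin protein MRG-1, and in wild-type larvae.

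The tested larvae came from strain XA6227, genotype *mrg-1* -/- (3 libraries), and the control larvae from strain N2, genotype wild type (3 libraries). The labels do not name the *mrg-1* allele or the balancer. Mutant larvae were the progeny of homozygous, non-roller adults without the balancer, 2000 to 4000 per replicate, picked by hand, while a like number of N2 adults was washed off plates. The mothers of the mutant larvae were thus themselves homozygous. Genotype and the way the mothers were collected therefore cannot be told apart. In both groups, eggs from bleached adults hatched in M9 buffer for 18 h and the larvae were then fed for 2 h and 30 min. The libraries are total RNA of pooled whole animals, so that fewer cells of a type and less RNA per cell cannot be told apart. The design text calls the 3 libraries of a group biological replicas.

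Cytochrome P450 enzymes are heme-bearing monooxygenases that add oxygen to lipids, steroids and foreign compounds, and most receive their electrons from NADPH through a shared reductase, encoded in the worm by *emb-8*. The nematode family has expanded by gene duplication, and many members lie in tandem arrays. Members of the cyp-35 group are known as genes that respond to foreign chemicals in the intestine, *cyp-31A2* and *cyp-31A3* act in the lipid layer of the eggshell, *cyp-33E2* and *cyp-29A3* take part in making eicosanoids, and *cyp-44A1* is a mitochondrial type. For most other members no substrate is known.

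Levels are given as CPM, counts scaled to library size with TMM factors, and changes as the log2 fold change of mutant over wild type with its standard error (SE) from edgeR's quasi-likelihood test, where a gene passed at a Benjamini-Hochberg adjusted p below 0.05 over all 13460 genes tested. The mutated gene was lower in its own libraries: *mrg-1* had 54, 136 and 137 counts in mutant libraries, or 2.11, 5.61 and 5.15 CPM, against 30.2, 15.9 and 18.8 CPM in wild-type libraries (log2 fold change -2.33, SE 0.53, edgeR adjusted p = 0.0413). Total counts per library were 20917771 to 24123189 counts in the mutant and 19238422 to 39063186 in the wild type. Mitochondrially encoded genes took 8.42% to 12.4% of the counts in the mutant and 10.6%, 23.1% and 45.6% in wild-type libraries 1, 2 and 3. Counts fell on 16071 to 16939 genes per mutant library and on 14100 to 15466 per wild-type library. Across genes, log2 CPM correlated at 0.928 to 0.941 between pairs of mutant libraries and at 0.86 to 0.888 between pairs from the wild type. Against the mutant libraries these values were 0.884 to 0.911 for wild-type library 1 and 0.816 to 0.852 for wild-type libraries 2 and 3. Wild-type library 1 correlated at 0.888 with wild-type library 2 and at 0.863 with wild-type library 3. Wild-type libraries 2 and 3 correlated at 0.86 with each other.

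The P450 genes had a modest level in these larvae, with a few strong members and many near the limit of detection. Per length and over all 6 libraries, the highest was *cyp-36A1*, a gene tied by genetics to the EGL-9 and HIF-1 oxygen pathway, with 44.3 ± 31.6 CPM per kb in the mutant and 46.5 ± 18.0 CPM per kb in the wild type (SD, n = 3 each). Its exons overlap those of the coding gene *figo-1* on the other strand in WBcel235. The strand setting of the counting is not given, so its level may hold reads of *figo-1*. *cyp-14A5* followed with 62.5 ± 21.5 CPM per kb in the mutant and 24.1 ± 16.6 in the wild type, and *cyp-33C8* with 42.4 ± 8.87 against 5.43 ± 3.94 CPM per kb. The rest of the 10 highest were *cyp-13B1*, *cyp-35C1*, *cyp-35A2*, *cyp-13A2*, *cyp-29A2*, *cyp-33C9* and *cyp-33A1*, with means between 5.13 and 14.5 CPM per kb in the mutant and between 7.05 and 21.3 in the wild type. Only 12 of the 73 genes reached a mean of 10 CPM over the 6 libraries. All lengths are those deposited with the counts, and 4 of the 73 differ by more than 15% from the annotated exon length (*cyp-13A2*, *cyp-23A1*, *cyp-33C6* and *cyp-33C12*). For *cyp-23A1* that length is 8352 bases, longer than the 3923 bases the gene spans in WBcel235, so its rank of 34 is uncertain. With the annotated exon length of 1719 bases it stood at 10.0 ± 1.33 CPM per kb in the mutant and 5.60 ± 2.22 in the wild type.

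**Figure D1:**
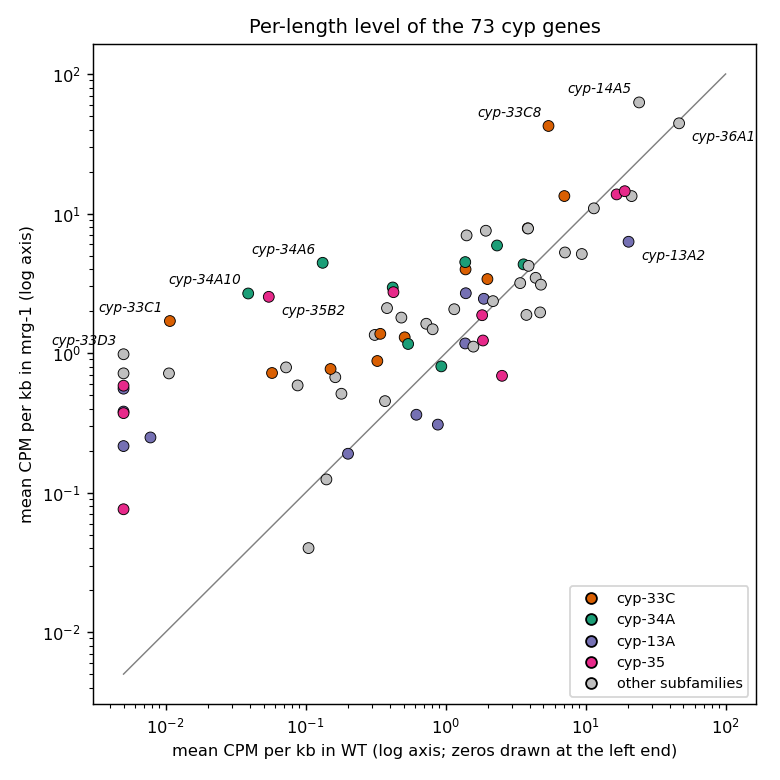
Mean level per kilobase of each of the 73 genes in mutant libraries (vertical) and wild-type libraries (horizontal), both on log axes, n = 3 libraries per mean, with genes at 0 in the wild type drawn at the left end and the line marking equal levels. Genes of cyp-33C and cyp-34A lie mostly above the line, and those of cyp-35 on both sides of it.

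More of the family was detected in the mutant. The 73 genes summed to 538, 486 and 756 CPM in mutant libraries 1, 2 and 3 and to 359, 479 and 456 CPM in the wild type, so that the lowest mutant sum was just above the highest wild-type one. Counts were found for 71, 71 and 69 of the 73 genes in mutant libraries 1, 2 and 3, and for 59, 50 and 55 in wild-type libraries 1, 2 and 3. No gene was without counts in all mutant libraries, while 8 had 0 counts in all wild-type libraries, namely *cyp-13A7*, *cyp-13A8*, *cyp-13A11*, *cyp-13B2*, *cyp-33D3*, *cyp-35A1*, *cyp-35B1* and *cyp-35B3*. Against the floor of 3 counts over the wild-type group, which equals 0.0397 CPM, *cyp-13B2* was at least 32.9-fold higher (100 counts in the mutant), *cyp-13A8* at least 20.4-fold (62 counts) and *cyp-35A1* at least 20.1-fold (61 counts). The bounds for *cyp-35B1*, *cyp-13A11*, *cyp-13A7* and *cyp-35B3* were 15.8-fold, 15.1-fold, 8.55-fold and 2.96-fold. These bounds allow for counting error in the wild-type counts only. They take the mutant counts as observed and leave out the spread between libraries. The counts were uneven among mutant libraries: *cyp-13A8* had 3, 59 and 0 counts in mutant libraries 1, 2 and 3, and *cyp-35B1* had 40, 8 and 0. A further 7 genes had counts in wild-type library 1 but none in libraries 2 and 3, among them *cyp-14A1*, *cyp-33B1* and *cyp-34A2*. Detection thus moved with the smaller number of genes detected in wild-type libraries given above, and the part of that in these differences was not tested.

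**Figure D2:**
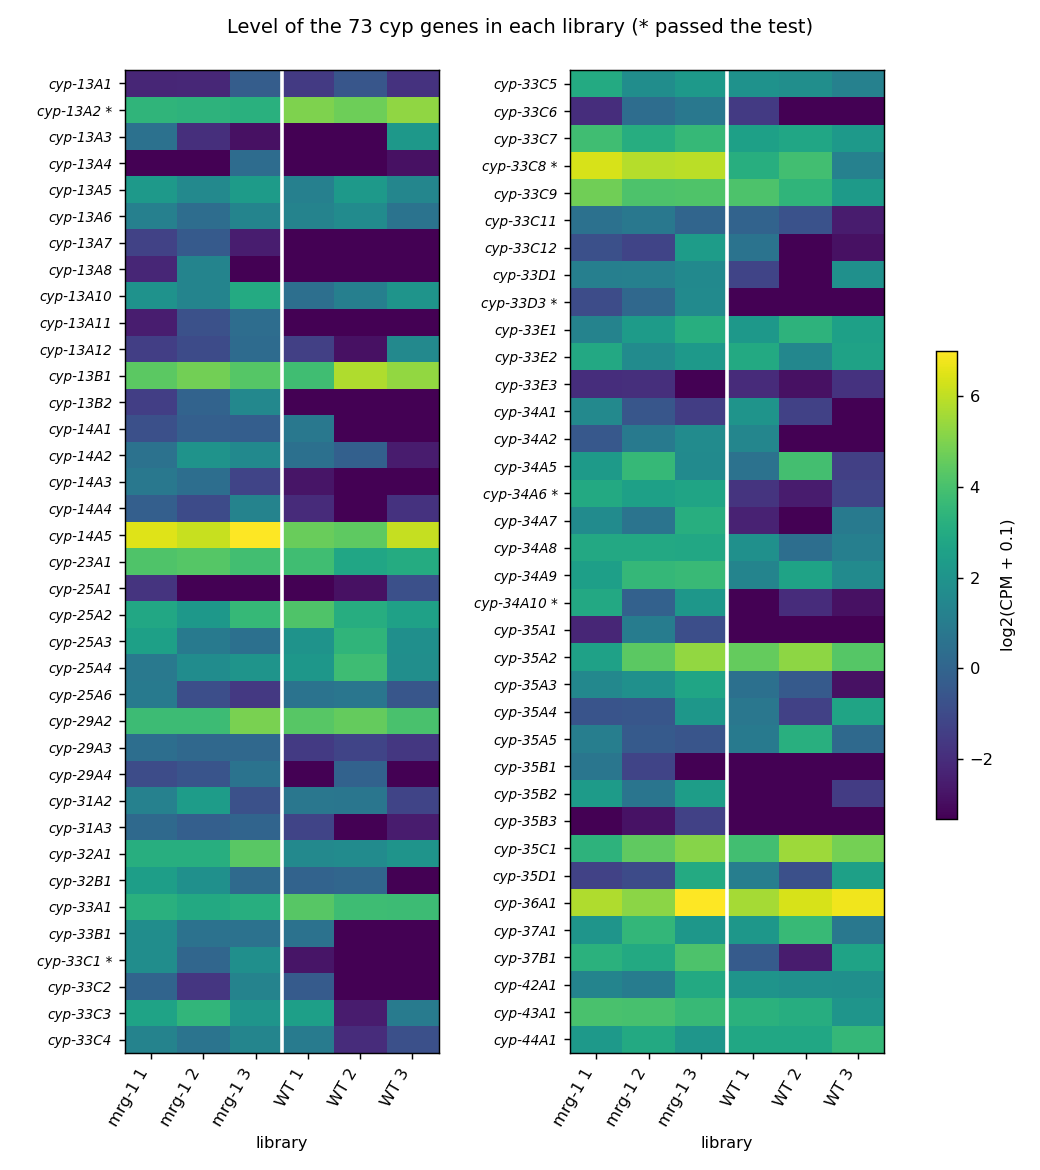
Level of each gene as log2(CPM + 0.1) in the 3 mutant libraries (left of the white line in each panel) and the 3 wild-type libraries (right), ordered by symbol, with an asterisk for the 6 genes that passed the test. The darkest cells, where no counts were found, stand mostly on the wild-type side.

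Of the 73 genes, 59 passed edgeR's filter on low counts and were tested, and 14 were not. Among those tested, 5 rose in the mutant (*cyp-33C8*, *cyp-34A6*, *cyp-34A10*, *cyp-33C1* and *cyp-33D3*), where 1.75% of all genes tested rose, and 1 fell (*cyp-13A2*), where 0.847% of all genes fell. At an unadjusted edgeR p below 0.05, 11 were higher and 1 lower, beside 9.29% and 10.2% of all genes tested. In 21 the 3 mutant libraries all lay above the 3 wild-type ones and in 2 all lay below, beside 14.4% and 12% of all genes tested. DESeq2 called 11 higher and 1 lower, beside 5.43% and 4.35% of the genes to which it gave an adjusted p. The log2 fold change was positive in 40 of the 59 and its median was 0.94, against -0.03 over all genes tested, where 48.7% were positive. A gene nearly silent in the wild type passed the filter only through its mutant level, so these shares do not stand for all 73. By level, the 12 genes with a mean of at least 10 CPM had a median log2 fold change of -0.07, with 5 positive, 1 called higher and 1 called lower, against -0.12 over the 7047 tested genes of such a mean. The other 47, among them 4 called higher, had a median of 1.15, with 74.5% positive, against 0.15 and 54.9% over the 6413 tested genes under 10 CPM. Whether these differences exceed those of other gene lists was not tested.

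The strongest of the genes that rose was *cyp-33C8* (WBGene00019967; chromosome V, minus strand, 3800782 to 3803542 in WBcel235). It stood at 83.3, 57.2 and 61.1 CPM in mutant libraries 1, 2 and 3, while its wild-type levels were 8.89, 14.7 and 2.23 CPM. The lowest mutant library was well above the highest wild-type one, with means of 67.2 ± 14.1 CPM in the mutant and 8.61 ± 6.24 CPM in the wild type (SD, n = 3 each). This was a 7.81-fold rise (log2 fold change 2.96, SE 0.56, edgeR adjusted p = 0.0222). Over the alternatives tried the log2 fold change ran from 2.53 without wild-type library 3 to 3.60 without wild-type library 2. Per length it ranked 3 of 73 in the mutant and 11 of 73 in the wild type.

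*cyp-34A6* (WBGene00015041; chromosome V, minus strand, 3958160 to 3961335) had 198, 138 and 173 counts in the mutant libraries and 4, 2 and 9 in the wild-type ones. As levels these were 7.72, 5.69 and 6.50 CPM in the mutant, and 0.192, 0.0733 and 0.329 CPM in the wild type. The mutant libraries were alike and all far above the wild type (log2 fold change 5.03, SE 0.93, edgeR adjusted p = 0.0197). Over the alternatives tried the log2 fold change ran from 3.98 in limma on the authors' normalized values to 5.65 without wild-type library 3. An annotated small nuclear RNA lies opposite its exons, and the strand setting of the counting is not given in the sources used here. The same holds for *cyp-34A1*, *cyp-34A2*, *cyp-34A5*, *cyp-34A7* and *cyp-34A9*, and a small nucleolar RNA lies opposite the exons of *cyp-34A8*.

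*cyp-34A10* (WBGene00015045; chromosome V, minus strand, 3970702 to 3972991), from the same array, had 191, 20 and 115 counts in mutant libraries 1, 2 and 3 and 0, 4 and 1 in wild-type libraries 1, 2 and 3. Its level was 7.45, 0.825 and 4.32 CPM in the mutant and 0, 0.147 and 0.0365 CPM in the wild type. The groups did not overlap, but mutant library 2 was far below library 1 (log2 fold change 5.94, SE 1.37, edgeR adjusted p = 0.043). It was 7.38 without wild-type library 2 and 5.26 without mutant library 1.

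The other pair that rose was all but silent in the wild type. *cyp-33C1* (WBGene00016686; chromosome V, plus strand, 2179514 to 2181938) had 83, 23 and 91 counts in the mutant libraries, and 1 count, in library 1, in the wild type. The ratio of summed counts, scaled for depth, was 194 with an exact 95% binomial interval of 34.5 to 7714 that covers counting error only and not the spread between libraries, and the edgeR adjusted p was 0.0373. *cyp-33D3* (WBGene00012448; chromosome V, minus strand, 18832264 to 18837225) had 11, 25 and 79 counts in mutant libraries 1, 2 and 3 and 0 in the wild type. It was at least 37.8-fold higher against the floor of 3 counts over the wild-type group (edgeR adjusted p = 0.0486). Most of its counts came from mutant library 3.

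The single gene that fell was *cyp-13A2* (WBGene00011676; chromosome II, minus strand, 9783384 to 9787629). It stood at 10.7, 10.1 and 9.20 CPM in the mutant libraries and at 31.9, 26.4 and 38.5 CPM in the wild-type ones. The mutant libraries were close together and all below the wild type, with means of 10.0 ± 0.764 CPM in the mutant and 32.3 ± 6.08 CPM in the wild type (SD, n = 3 each). The level was 3.23-fold lower in the mutant (log2 fold change -1.69, SE 0.38, edgeR adjusted p = 0.041). In rank of per-length level the gene stood at 13 of 73 in the mutant and at 4 of 73 in the wild type by its deposited length of 1593 bases, and at 18 and 6 by its 2258 annotated exon bases.

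All 6 calls were narrow in edgeR, but they did not hold equally. Of the alternative fits that tested it, *cyp-33C8* passed in 12 of 15, *cyp-34A6* in 10 of 15 and *cyp-33C1* in 9 of 15. *cyp-13A2* passed in 7 of 15, *cyp-34A10* in 7 of 14 and *cyp-33D3* in 4 of 14. Without mutant library 1, 2 or 3, edgeR tested 64, 61 and 61 of the 73 genes and called 0 of them. In these fits it called only 0.249%, 0.478% and 0.315% of all genes tested. At an unadjusted p below 0.05, 14, 9 and 7 of the P450 genes were higher and 1 each time lower. The share of all genes at that p was not taken for these fits. Without wild-type library 2 only *cyp-33C8* was called, without wild-type library 3 *cyp-33C8* and *cyp-34A6* of the 6, and without wild-type library 1 all but *cyp-33D3*. The shares of all genes called were 0.576%, 2.83% and 7.32% without wild-type libraries 2, 3 and 1. Limma voom with quality weights called *cyp-33C8* and *cyp-13A2* of the 6, while DESeq2 called all 6. DESeq2 adjusted p-values ran from 3.88e-09 for *cyp-34A6* to 0.00147 for *cyp-33D3*. With counts scaled to library totals alone, *cyp-13A2* and *cyp-33D3* did not pass.

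**Figure D3:**
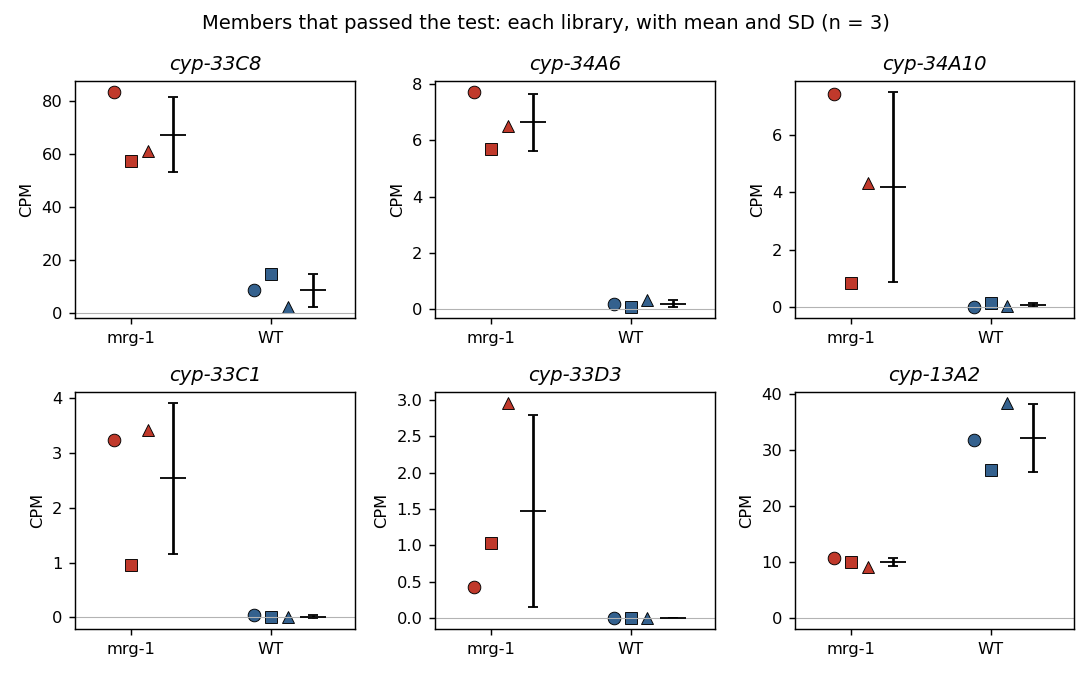
Level in CPM of the 6 genes that passed the test, with circles, squares and triangles for libraries 1, 2 and 3 of each group and the mean with SD beside them (n = 3). In the 5 genes that rose the wild-type points lie below all mutant points, and in *cyp-13A2* above them.

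In the cyp-33C subfamily every tested gene had a positive log2 fold change. The subfamily's summed level was 147, 103 and 116 CPM in mutant libraries 1, 2 and 3, against 46.3, 36.5 and 16.3 CPM in wild-type libraries 1, 2 and 3, and *cyp-33C8* made up most of the mutant sum. Of 10 tested genes of 11, 2 rose (*cyp-33C1* and *cyp-33C8*, the same number in DESeq2), where 1.75% of all genes tested rose in edgeR and 5.43% in DESeq2. In 5 all mutant libraries lay above the wild type, as in 14.4% of all genes tested. The log2 fold changes ran from 0.77 for *cyp-33C5* to 7.07 for *cyp-33C1* with a median of 1.48. Among those that did not pass, *cyp-33C9* stood at 27, 17.4 and 17.7 CPM in the mutant and at 17.2, 10.8 and 4.82 CPM in the wild type (log2 fold change 0.92, SE 0.51, edgeR adjusted p = 0.339). *cyp-33C7* had 11.7 ± 2.88 CPM in the mutant and 5.74 ± 1.11 CPM in the wild type, without overlap (SD, n = 3 each; log2 fold change 1.02, SE 0.52, edgeR adjusted p = 0.299). *cyp-33C3* had 162, 267 and 108 counts in mutant libraries 1, 2 and 3 and 115, 2 and 51 in wild-type libraries 1, 2 and 3, so that wild-type library 1 reached the mutant range. The median of cyp-33C ran from 1.29 without mutant library 3 to 2.87 without wild-type library 1. All 10 genes stayed positive under every scaling tried, and 9 of 10 without mutant library 3.

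The remaining cyp-33 genes were mixed. *cyp-33D1* had 2.07, 2.19 and 2.85 CPM in the mutant and 0.336, 0 and 3.54 CPM in the wild type, so that the groups overlapped. *cyp-33A1* was lower in all mutant libraries, at 9.32, 7.67 and 8.68 CPM, against 19.8, 13.9 and 13.3 CPM in the wild type (log2 fold change -0.87, SE 0.45, edgeR adjusted p = 0.302). Genes of cyp-33E overlapped between the groups: *cyp-33E1*, the highest of them per length, had 5.32 ± 3.21 CPM in the mutant and 6.76 ± 2.93 CPM in the wild type, and *cyp-33E2* 5.01 ± 2.16 and 5.39 ± 2.51 CPM (SD, n = 3 each).

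All 8 genes of cyp-34A were tested, and 2 rose, *cyp-34A6* and *cyp-34A10* (3 in DESeq2, with *cyp-34A8*), beside the same 1.75% and 5.43% of all genes tested. The median log2 fold change was 1.52 and 7 of the 8 were positive. That median was 1.42 without mutant library 3, 2.66 without wild-type library 1 and 2.79 in limma voom with quality weights. The summed level was 39.5, 41.4 and 45.9 CPM in mutant libraries 1, 2 and 3 and 14.1, 22.9 and 7.56 CPM in wild-type libraries 1, 2 and 3, so that the mutant sums were close together and all above the wild-type ones. *cyp-34A8* had 7.49, 7.51 and 7.21 CPM in the mutant and 3.51, 1.21 and 2.12 CPM in the wild type, without overlap (log2 fold change 1.70, SE 0.69, edgeR adjusted p = 0.197). *cyp-34A9*, the highest of the subfamily per length, had 5.50, 11.5 and 12.8 CPM in the mutant and 2.45, 6.31 and 2.99 CPM in the wild type, where the groups overlapped. *cyp-34A7* had 3.04, 1.48 and 8.75 CPM in the mutant, and 0.0961, 0 and 1.79 CPM in the wild type (log2 fold change 2.80, SE 1.41, edgeR adjusted p = 0.294). *cyp-34A5* had 4.87, 12 and 3.00 CPM in the mutant and 1.39, 14.9 and 0.292 CPM in the wild type, with wild-type library 2 the highest of all 6. *cyp-34A1* and *cyp-34A2*, which lie apart from the other 6, had log2 fold changes of -0.21 and 1.12 and overlapped.

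The cyp-35 genes, known for their response to foreign chemicals, gave 0 calls in edgeR among 7 tested of 10 (2 with an unadjusted p below 0.05, 2 called higher in DESeq2 and 0 in limma voom with quality weights). Over all genes tested, 9.29% were higher at such a p, and DESeq2 called 5.43% higher. The median log2 fold change of the cyp-35 genes was -0.28, with 3 positive and 4 negative. The summed level was 28.3, 51.8 and 99.6 CPM in mutant libraries 1, 2 and 3 and 44.7, 93.5 and 61.1 CPM in wild-type libraries 1, 2 and 3, so the wild-type sums lay within the range of the mutant ones. *cyp-35A2* and *cyp-35C1* carried most of it. *cyp-35A2* had 5.93, 20.9 and 39.5 CPM in the mutant and 23.6, 37.8 and 19.2 CPM in the wild type. *cyp-35C1* had 10.1, 22 and 34.8 CPM in the mutant and 14.5, 45.1 and 28.4 CPM in the wild type. In both genes mutant library 1 was the lowest of all 6 libraries. Among the weak members, *cyp-35B2* had 129, 37 and 141 counts in the mutant and 0, 0 and 7 in the wild type (log2 fold change 5.41, SE 1.45, edgeR adjusted p = 0.0681). It was called in DESeq2, with no filter on low counts, with replicate number as a block, without wild-type library 3 and in limma on the authors' normalized values. *cyp-35A3* had 4.28 ± 2.05 CPM in the mutant and 0.665 ± 0.63 CPM in the wild type (SD, n = 3 each; log2 fold change 2.69, SE 1.11, edgeR adjusted p = 0.205). *cyp-35A5* had 2.03, 0.660 and 0.563 CPM in the mutant and 1.78, 9.13 and 1.06 CPM in the wild type, with wild-type library 2 far above the rest. With no filter on low counts, which brings in *cyp-35A1*, *cyp-35B1* and *cyp-35B3*, the median over all 10 genes was 1.39, or 0.81 with these 3 genes at their bound, so the sign of the cyp-35 median turned on that filter. Scaled to library totals alone it was 0.01, and it ran from -1.01 without mutant library 3 to 1.09 without wild-type library 3.

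The cyp-13A subfamily was led by *cyp-13A2*, whose fall is given above, and its summed level was 23.4, 20.7 and 28.8 CPM in mutant libraries 1, 2 and 3, against 38.2, 36.8 and 53.9 CPM in the wild type. Of this, *cyp-13A2* alone held 10.7, 10.1 and 9.20 CPM in the mutant and 31.9, 26.4 and 38.5 CPM in the wild type. The lower mutant sums thus came from that gene. Only 5 of the 11 cyp-13A genes were tested, with a median log2 fold change of -0.24. That median was 0.40 over all 11 with no filter, 0.01 when scaled to library totals alone and 0.20 in the authors' normalized values, and it ran from -0.69 without mutant library 3 to 0.32 without mutant library 1, so it has no firm sign. Its other members were weak in both groups. *cyp-13A5* had 4.08 ± 1.16 CPM in the mutant and 3.12 ± 1.31 CPM in the wild type, and *cyp-13A10* 4.67 ± 2.86 and 2.43 ± 1.38 CPM (SD, n = 3 each). *cyp-13A12*, known from work on the response to oxygen after its loss, had 0.273, 0.412 and 1.13 CPM in the mutant and 0.288, 0.0367 and 2.77 CPM in the wild type, and overlapped. *cyp-13A3* had 4.38 CPM in wild-type library 3 and none in wild-type libraries 1 and 2. The array on chromosome II that begins with *cyp-13A2* also holds *cyp-13A7*, with 8, 16 and 2 counts in the mutant and 0 in the wild type. *cyp-13A5* and *cyp-13A6*, which lie between them, had counts in all 6 libraries and overlapped between the groups.

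**Figure D4:**
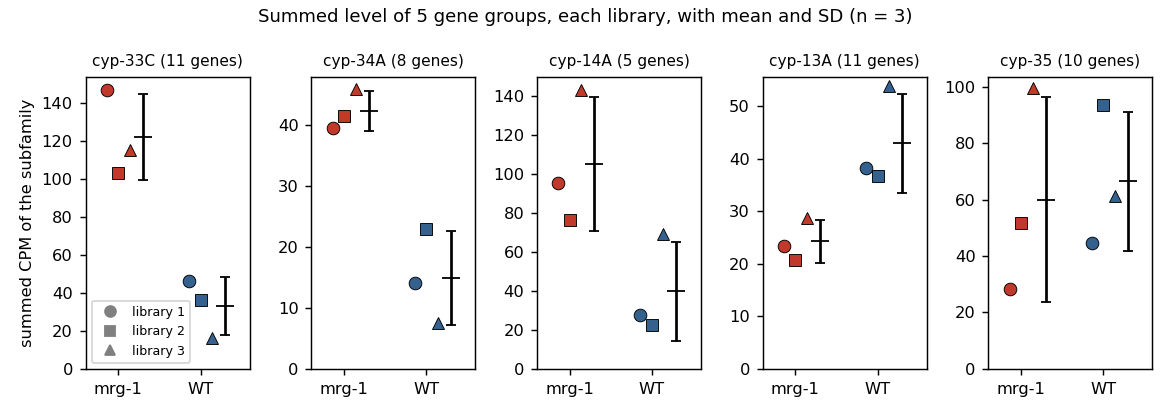
Summed CPM of all genes of cyp-33C, cyp-34A, cyp-14A, cyp-13A and cyp-35 in each library, with circles, squares and triangles for libraries 1, 2 and 3 and the mean with SD beside them (n = 3). Mutant libraries lie above the wild type in the first 3 groups, below it in cyp-13A, and overlap it in cyp-35. Most of the mutant sum of cyp-33C is *cyp-33C8*. Nearly all of the cyp-14A sum in both groups is *cyp-14A5*, which did not pass the test. In cyp-13A the lower mutant sums come from *cyp-13A2*.

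In cyp-14A all 4 tested genes of 5 had positive log2 fold changes with a median of 1.63. The signs held under every scaling tried, but 1 of 5 tested was negative without wild-type library 2 and 1 of 5 without wild-type library 3. The median ran from 1.58 without mutant library 2 to 3.65 without wild-type library 1. The count that passed in edgeR was 0, with 2 at an unadjusted p below 0.05, 1 passing in DESeq2 and 0 in limma voom with quality weights. Over all genes tested, 9.29% were higher at such a p, and DESeq2 called 5.43% higher. *cyp-14A5*, the strongest P450 gene of the mutant per length, had 91.0, 70.3 and 137 CPM in the mutant and 24.6, 21.7 and 68.7 CPM in the wild type. The groups came close, with mutant library 2 just above wild-type library 3 (log2 fold change 1.37, SE 0.45, edgeR adjusted p = 0.121). It was called without wild-type library 3 (log2 fold change 2.12), with no filter on low counts, with replicate number as a block and in limma on the authors' normalized values. *cyp-14A4* had 0.780, 0.412 and 2.37 CPM in the mutant and 0.144, 0 and 0.183 CPM in the wild type (log2 fold change 3.40, SE 1.41, edgeR adjusted p = 0.206). *cyp-14A3* had 43, 30 and 9 counts in the mutant and 1 in the wild type. It did not pass edgeR's filter on low counts, and is the gene of the subfamily that DESeq2 called.

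The cyp-25A genes pointed the other way, with negative log2 fold changes in all 4 tested genes of 5 and a median of -0.76, and 0 called in edgeR (0 at an unadjusted p below 0.05, 0 in DESeq2 and 0 in limma voom with quality weights). The signs held under every scaling tried, while 1 of the 4 was positive without wild-type library 1. The median ran from -1.39 without mutant library 1 to -0.34 without wild-type library 2. All cyp-25A genes overlapped between the groups. *cyp-25A2*, the strongest, had 7.93 ± 3.87 CPM in the mutant and 10.7 ± 6.24 CPM in the wild type (SD, n = 3 each). *cyp-25A4* had 1.72, 3.18 and 3.94 CPM in the mutant and 4.28, 13.8 and 3.36 CPM in the wild type, and *cyp-25A3* had 5.73, 1.77 and 1.31 CPM in the mutant and 3.80, 10.6 and 3.39 CPM in the wild type. In both genes wild-type library 2 was far above the rest.

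Among genes with a known role, *cyp-29A3* of eicosanoid synthesis had 1.21, 1.03 and 1.01 CPM in the mutant and 0.240, 0.330 and 0.219 CPM in the wild type, without overlap (log2 fold change 2.02, SE 1.07, edgeR adjusted p = 0.319). *cyp-29A2*, the highest of its subfamily, had 18.8 ± 9.58 CPM in the mutant and 19.8 ± 3.63 CPM in the wild type (SD, n = 3 each). The eggshell gene *cyp-31A3* had 27, 19 and 24 counts in the mutant and 7, 0 and 2 in the wild type (log2 fold change 2.74, SE 1.38, edgeR adjusted p = 0.293), and its partner *cyp-31A2* had 57, 123 and 13 counts in the mutant and 33, 43 and 9 in the wild type, and overlapped. Reads of such close pairs, and of tandem copies in general, may have been split between genes by the counting. The mitochondrial *cyp-44A1* had 5.47 ± 1.89 CPM in the mutant and 8.48 ± 2.61 CPM in the wild type (SD, n = 3 each), and shares exon bases with *npp-24* on the same strand in WBcel235. *cyp-36A1* was as variable as it was strong, at 54.1, 36.6 and 138 CPM in the mutant and 48.3, 81.9 and 110 CPM in the wild type (log2 fold change -0.07, SE 0.47, edgeR adjusted p = 0.95), and the sign of its change turned when counts were scaled to library totals alone (0.31). *cyp-32A1* had 8.89, 8.83 and 20.4 CPM in the mutant and 2.79, 3.08 and 3.94 CPM in the wild type, without overlap (log2 fold change 1.96, SE 0.59, edgeR adjusted p = 0.093), and DESeq2 called it.

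**Figure D5:**
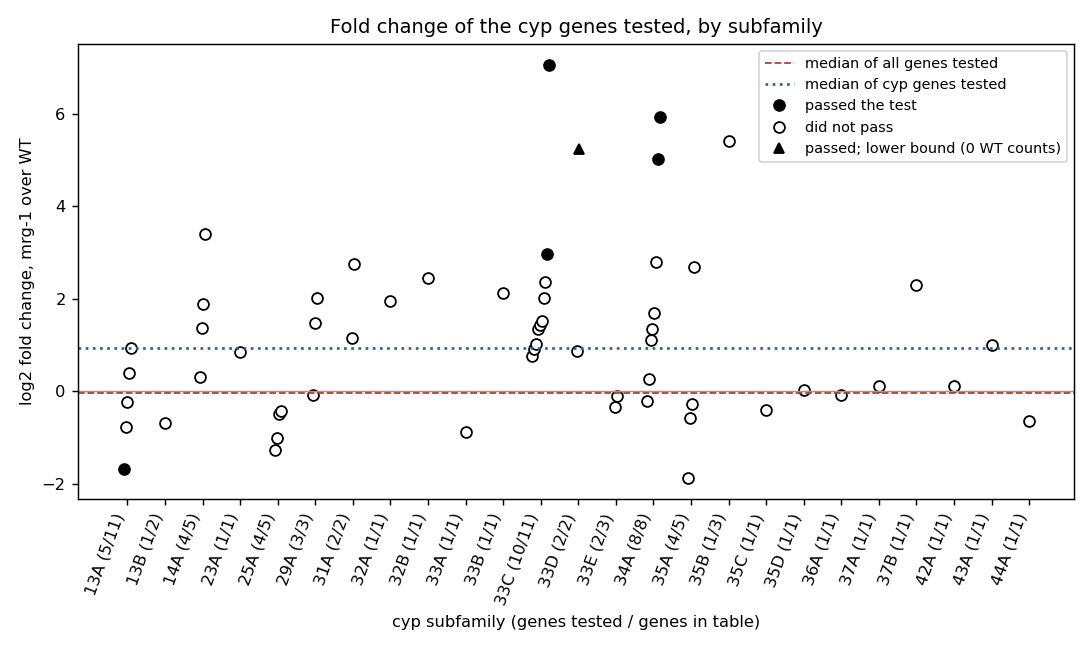
Log2 fold change of mutant over wild type for each of the 59 tested genes, by subfamily, with filled symbols for the 6 that passed, a triangle for the lower bound of *cyp-33D3*, and lines at the median of all genes tested (-0.03) and of the P450 genes tested (0.94). All points of cyp-33C and cyp-14A lie above 0 and all points of cyp-25A below it.

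The P450 genes are gathered on chromosome V, which holds 41 of the 73, with 12 on II, 7 on X, 6 each on III and IV and 1 on I. All 5 genes that rose were among the 37 tested genes of chromosome V, where 2.96% of all tested genes rose. By WBcel235, 38 genes lie in 11 runs with no other protein-coding gene between neighbours. The largest of these on chromosome V runs from *cyp-34A5* to *cyp-34A10*, and its 6 genes were all tested, all with positive log2 fold changes (0.26 to 5.94, median 2.25). The run of *cyp-33C4*, *cyp-33C3*, *cyp-33C5*, *cyp-33C6* and *cyp-33C7* had 4 tested genes between 0.77 and 1.52 and 0 called (1 without overlap). On the same chromosome, the run of *cyp-35A5*, *cyp-35B1*, *cyp-35B2* and *cyp-35B3* held both the lowest log2 fold change among the tested P450 genes (*cyp-35A5*, -1.88) and the 5.41 of *cyp-35B2*. Genes of other families next to a called member were looked up after the calls were known, and the 4 that were tested had edgeR adjusted p-values of 0.0996 to 0.989. Both genes beside *cyp-33C8* were higher in all mutant libraries without passing: *srt-30* had 0.594 ± 0.238 CPM in the mutant and 0.0122 ± 0.0212 CPM in the wild type (SD, n = 3 each; edgeR adjusted p = 0.0996), and *R08F11.4* had 7.34 ± 0.786 CPM in the mutant and 1.23 ± 1.67 CPM in the wild type (SD, n = 3 each; log2 fold change 2.56, SE 1.09, edgeR adjusted p = 0.219). Next to *cyp-33D3*, *ncs-5* and *nhr-65* had log2 fold changes of 0.02 and -0.44.

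None of the genes on the lists of P450 partners and regulators passed in edgeR. The counts below stand beside 9.29% of all genes tested that were higher and 10.2% lower at an unadjusted edgeR p below 0.05. DESeq2 called 5.43% higher and 4.35% lower. Of 5 electron partners tested, 1 had an unadjusted p below 0.05 and DESeq2 and limma voom with quality weights called 0. The shared reductase *emb-8* had 483 ± 47.7 CPM in the mutant and 448 ± 46.5 CPM in the wild type (log2 fold change 0.11, SE 0.24, edgeR adjusted p = 0.844), and *cytb-5.2*, a cytochrome b5, 12.6 ± 2.28 and 30.0 ± 22.5 CPM (SD, n = 3 each; log2 fold change -1.25, SE 0.57, edgeR adjusted p = 0.245). Of 9 genes of the pathway that makes and reads the steroid hormone dafachronic acid, 6 had positive log2 fold changes and 2 an unadjusted p below 0.05 (1 called in DESeq2 and 0 in limma voom with quality weights). Its P450 enzyme *daf-9*, which the symbol rule leaves out, had 3.55 ± 1.33 CPM in the mutant and 2.14 ± 1.72 CPM in the wild type. The dehydrogenase gene *dhs-16* had 2.93 ± 1.78 CPM in the mutant and 0.181 ± 0.219 CPM in the wild type, without overlap (SD, n = 3 each; log2 fold change 4.02, SE 1.26, edgeR adjusted p = 0.105). Of 18 tested regulators of detoxification genes, 13 were positive with a median of 0.24 and 2 had an unadjusted p below 0.05 (1 called in DESeq2 and 0 in limma voom with quality weights). The nuclear receptor gene *nhr-66* had 73.0 ± 7.44 CPM in the mutant and 37.2 ± 23.7 CPM in the wild type, without overlap (edgeR adjusted p = 0.224). The receptor gene *nhr-8* had 55.8 ± 8.95 and 35.1 ± 15.4 CPM, and *ahr-1*, the aryl hydrocarbon receptor, 10.9 ± 4.72 and 26.2 ± 22.4 CPM (SD, n = 3 each; edgeR adjusted p = 0.351 and 0.263).

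Markers of the tissues in a whole larva were followed beside these genes. Over all genes tested, 9.29% were higher and 10.2% lower at an unadjusted edgeR p below 0.05, and DESeq2 called 5.43% higher and 4.35% lower. The 10 intestinal markers summed to 2795 to 4262 CPM in the mutant and to 4526, 3004 and 1274 CPM in wild-type libraries 1, 2 and 3, with 8 positive log2 fold changes, a median of 0.29 and 0 called in edgeR (1 at an unadjusted p below 0.05, 0 in DESeq2 and 0 in limma voom with quality weights). None of them was at 0 in any library. Wild-type library 3, the lowest in these markers, was also the lowest in the sums of cyp-33C and cyp-34A but the highest wild-type library in that of cyp-14A, and wild-type library 1, the highest in these markers, had the lowest sum of the whole family. The part of the intestinal share in these sums was not tested. The 7 markers of body wall muscle all had positive log2 fold changes and summed to 12267 to 14925 CPM in the mutant and to 6593 to 10279 CPM in the wild type, with 0 called in edgeR (3 at an unadjusted p below 0.05, 1 in DESeq2 and 0 in limma voom with quality weights). The 8 neuron markers summed to 2965 to 3744 CPM in the mutant and to 2381 to 2700 CPM in the wild type, with 7 positive and 0 called in edgeR (3 at an unadjusted p below 0.05, 0 in DESeq2 and 0 in limma voom with quality weights). The 6 pharynx markers summed to 2603 to 3427 CPM in the mutant and to 793 to 3183 CPM in the wild type, and 1 of them rose, *phat-5*, with 80.2 ± 9.69 CPM in the mutant and 1.01 ± 1.05 CPM in the wild type (SD, n = 3 each; edgeR adjusted p = 0.00112). The 8 epidermis markers summed to 202 to 217 CPM in the mutant and to 233 to 375 CPM in the wild type. Of the 6 tested, 2 had positive log2 fold changes, with a median of -0.50, and 2 had an unadjusted edgeR p below 0.05. DESeq2 and limma voom with quality weights each called 1. The collagen gene *rol-6* rose, with 69, 38 and 69 counts in the mutant and 0 in the wild type (edgeR adjusted p = 0.0284), and *dpy-13* had 1 count in each mutant library and 0 in the wild type. Without passing, *elt-1*, *lin-26* and *che-14* were lower in all mutant libraries than in any wild-type one (log2 fold changes -0.60, -0.60 and -1.56). The 9 germ cell markers summed to 333 to 412 CPM in the mutant and to 610 to 830 CPM in the wild type, with 3 positive log2 fold changes among 8 tested. Without *cgh-1* the sums were 87.4 to 109 CPM in the mutant and 102 to 118 CPM in the wild type, and overlapped. Of the 9 the helicase gene *cgh-1* fell, with 287 ± 46.3 CPM in the mutant and 640 ± 129 CPM in the wild type (SD, n = 3 each; edgeR adjusted p = 0.0444), while *nos-2* was at 0 in 2 mutant libraries and 1 wild-type library. The part of any of these tissues in the P450 results was not tested.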

How the data were processed

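Total RNA of whole larvae was amplified from nanogram amounts with a NuGEN Ovation kit, per the labels' protocols. The authors deposited 1 count table, with raw counts and a length per gene, and 1 table of log2 expression. Recomputed here, those log2 values equal log2(scaled count + 8), each library having first been scaled to a sum of 24838462. The submitters' processing notes name genome build ce10. The sources used here name no aligner, counter, annotation or strand setting. Symbols, positions and neighbours came from the Ensembl annotation of WBcel235, another build, looked up by identifier (19870 of 20392 matched) with no coordinates converted. Every sample column belongs to a labelled sample (0 unmapped). Of the 73 members, 7 share exon bases with another coding gene and 16 only with a non-coding one.

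Mutant and wild type were compared in R 4.3.3 with edgeR 4.0.16 (TMM scaling, its default filter on expression, and a quasi-likelihood F test with genotype alone in the model, adjusted by Benjamini-Hochberg over all genes tested). SE is the absolute log2 fold change over the square root of F. The script was tested on simulated data. Each edgeR p-value sets the difference between the groups against the spread between these libraries. No 2 libraries agreed within sampling noise (median chi-square per gene of 14.95 or more). The depth, 19238422 to 39063186 counts, sets a floor of 3 counts at 0.110 to 0.144 CPM per library.

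Alternatives were DESeq2 1.42.0, other scalings and filters, limma 3.58.1, a replicate block, mitochondrial genes left out and each library left out. Members and lists were chosen with earlier results of these data known. Named are *mrg-1*, each called member or list gene, the 10 highest members per length, the highest of each subfamily of at least 3, and the 5 largest uncalled changes each way; other genes named were chosen after their values were seen. Figures were drawn with matplotlib 3.10.9.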

Additional observations from a re-analysis of the deposited data

How the results depend on the processing

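The edgeR calls of the P450 genes rested on 3 libraries per group and passed narrowly. DESeq2 called 832 genes higher and 666 lower over the whole table and 11 P450 genes higher, with medians of 1.39 for cyp-35 and 0.40 for cyp-13A. Scaled to library totals alone, 11 genes were lower over the whole table and 0 P450 genes, and the family median was 1.23. That scaling moved the median of all genes tested from -0.03 to 0.27, and the authors' normalized values moved it to 0.35. With no filter on low counts, 434 genes were higher and 300 lower, 8 P450 genes were higher, and the medians were 1.39 for cyp-35 and 0.40 for cyp-13A, since weak genes came in. With at least 1 CPM in 3 libraries, 3 P450 genes were higher and the cyp-29A median was 0.98, since fewer genes were tested. Limma voom with quality weights called 199 genes lower over the whole table and 1 P450 gene higher, with medians of 1.20 for the family, 0.35 for cyp-13A, 2.47 for cyp-14A, 1.96 for cyp-29A, 2.38 for cyp-33C and 2.79 for cyp-34A. Limma on the authors' normalized values called 480 genes higher and 34 lower, and 7 P450 genes higher (*cyp-14A5*, *cyp-35B2* and *cyp-37B1* beside *cyp-33C1*, *cyp-33C8*, *cyp-34A6* and *cyp-34A10*) and 0 lower, with medians of 1.27 for the family and 0.20 for cyp-13A. Deviations from the group mean correlated at -0.00483, 0.0433 and 0.093 between mutant and wild-type libraries of the same replicate number. Between libraries of different number the values ran from -0.0813 to 0.0461. With 3 libraries per group these values cannot tell whether the replicate numbers pair the libraries. With the replicate block, 0 P450 genes were lower and 5 higher, of which *cyp-14A5* and *cyp-35B2* were called in place of *cyp-34A10* and *cyp-33D3*, with medians of 0.36 for cyp-13A, 2.95 for cyp-14A, 2.04 for cyp-29A and 3.05 for cyp-34A. Where no cause is given it was not tested.

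Leaving out each library in turn, edgeR called 35 to 559 genes higher and 0 to 484 lower over the whole table, and 0 to 6 P450 genes higher and 0 to 1 lower. The medians ran from 0.74 to 1.23 for the family, -0.69 to 0.32 for cyp-13A, 1.58 to 3.65 for cyp-14A, -1.39 to -0.34 for cyp-25A, 0.74 to 2.21 for cyp-29A, 1.29 to 2.87 for cyp-33C, 1.42 to 2.66 for cyp-34A, -1.01 to 1.09 for cyp-35 and -1.29 to 0.98 for cyp-35A. Among the genes named by rule, those that changed sign were not called, while other members with small changes, in cyp-14A, cyp-25A, cyp-33C, cyp-34A and cyp-35 for example, also did so under some alternatives. Scaled to library totals alone, log2 fold changes were 0.31 for *cyp-36A1*, 0.013 for *cyp-35A2* and 0.21 for *cyp-29A2*. In the authors' normalized values they were 0.10 for *cyp-36A1*, 0.15 for *cyp-29A2* and 0.20 for *cyp-13A12*, which stood at 0.78 in limma voom and 0.36 with the replicate block. With libraries left out they ran from -0.82 to 0.29 for *cyp-36A1*, -0.88 to 0.049 for *cyp-35C1*, -1.01 to 0.18 for *cyp-35A2*, -0.57 to 0.15 for *cyp-29A2*, -0.86 to 0.14 for *cyp-25A2*, -0.90 to 0.051 for *cyp-33E1* and -1.58 to 1.91 for *cyp-13A12*.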
